A study of Homo sapiens with 16 samples.

Results

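Medium and high MYC were compared in P493-6 cells that had all received the N-myristoyltransferase inhibitor IMP1088, with 4 RNA-seq libraries in each group. The genes described are all those with a mean of at least 10 over these 8 libraries in the deposited table of normalised read counts. They numbered 13814 of the 58051 genes listed, of which 28714 had a value above 0 in any library. High-MYC cells were kept in plain DMEM, and medium-MYC cells in DMEM containing both doxycycline (0.1 µg/mL) and β-estradiol (1 µM), each starting 24 h before treatment. All 8 libraries then had 24 h of 100 nM IMP1088. The same comparison was available in 8 further libraries given DMSO in its place, 4 at each MYC level, and these served as the reference for asking which differences persisted, shrank or appeared under the inhibitor. Because medium MYC was reached by adding doxycycline and β-estradiol together, the effects of MYC level, of EBNA2 activity and of the additives cannot be told apart. Nothing in the labels says that the 4 replicates of a group were separate cultures, so p-values measure the spread between these libraries, which may be technical.

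P493-6 is a human B cell line immortalised with Epstein-Barr virus material, in which a tetracycline-repressible MYC gene is turned down by doxycycline and the viral factor EBNA2, fused to an oestrogen receptor domain, is switched on by oestrogen. MYC pairs with MAX on E-box DNA and drives ribosome production, nucleotide synthesis and growth, whereas EBNA2 is brought to DNA by the host protein RBPJ and switches on genes of activated B cells. N-myristoyltransferases link the fatty acid myristate to an N-terminal glycine of proteins such as the Src-family kinases, which helps to hold them at membranes. The integrated stress response, carried by the transcription factor ATF4, and the unfolded protein response of the endoplasmic reticulum, carried by XBP1 and ATF6, are the programmes by which cells answer amino acid shortage and misfolded secretory protein.

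Depth ran from 8755296 to 11811402 reads in the 8 inhibitor libraries and up to 13858534 over all 16. Libraries of a group correlated at 0.985 to 0.991 over genes, no pair of replicates was alike within counting noise, and the first principal component, which separated the MYC levels, held 88.0% of the variance of the 8 inhibitor libraries. The intervals given come from the fit and measure the spread between libraries. Detection floors cover counting error only, since without molecular identifiers a read is not an independent molecule. All 8 B cell markers on the list used were tested, and their summed level was 37752 to 39129 at high MYC and 63223 to 64768 at medium MYC. They did not all move together. At a limma adjusted p under 0.05, 6 (75%) were higher and 1 (12.5%) lower at medium MYC with inhibitor. The shares of all genes were 39.5% and 37.9%. With DMSO 6 were higher and 2 lower. Of 28 markers of other cell types 11 were tested, with a summed level of 10526 to 10571 at high and 2217 to 2338 at medium MYC. Most of that sum was JCHAIN, the joining chain of secreted antibodies, which fell at medium MYC (log2 difference -3.0 with the inhibitor and -3.52 with DMSO). MZB1, another plasma cell marker, fell as well (-1.63), whereas TRAC of T cells (3.04) and COL1A1 of fibroblasts (4.26) rose. The granulocyte gene MPO, the platelet gene PF4 and 11 others of the 28 were at 0 in all 4 high-MYC inhibitor libraries, and 6 of the 28 at 0 in all 4 medium-MYC ones. The part of these markers in the results was not tested. In such bulk samples, fewer cells of a type and less RNA per cell cannot be told apart.

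MYC itself separated the groups at each treatment. Under IMP1088 it was counted at 46843, 47645, 48049 and 47631 in the 4 high-MYC libraries and at 1400.4, 1444, 1328 and 1356 in the medium-MYC libraries, a log2 difference of -5.10 ± 0.041 (SE). With DMSO the difference was -5.04, and the change between treatments was -0.061 (95% interval -0.18 to 0.059). MYC counts were higher with inhibitor at both levels, where the DMSO means were 31649 ± 2129.7 at high and 959 ± 48.7 at medium MYC (SD, n = 4). NMT1, the main N-myristoyltransferase, was slightly higher at medium MYC, at 1612, 1595, 1762 and 1679 against 1487, 1429.7, 1484 and 1417. NMT2, its weakly expressed paralogue, was counted at 24.5, 16.9, 27.2 and 18.1 at medium and 4.30, 2.22, 1.75 and 1.04 at high MYC. The groups did not overlap for any of these 3 genes, and the exact two-sided permutation test gave p = 0.0286 for each (adjusted over the 3 genes 0.0286), the smallest that 4 against 4 libraries allow. For MYC this outcome was set by the design, because MYC level defines the groups. No change with the inhibitor was called for either drug target. The log2 difference of NMT1 was 0.19 with inhibitor and 0.20 with DMSO (95% interval of the change -0.11 to 0.095), and that of NMT2 2.83 and 2.08 (-0.30 to 1.80). Because its high-MYC libraries held so few reads, the NMT2 difference with inhibitor depended on the scale and was 3.31 with 0.1 added to the values, 1.35 with 10 added and 1.97 with quantile normalisation.

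Under IMP1088, 10687 of the 13814 genes (77.4%) passed the test between medium and high MYC, which was limma with an adjusted p under 0.05 on log2 of the value plus 1. Of these, 5454 were higher (39.5% of all tested) and 5233 lower (37.9%) at medium MYC, and 3491 (25.3%) differed by at least 2-fold. The deposited values are scaled so that the typical gene is level between libraries, which sets the median difference near 0. Higher and lower are therefore relative to the other genes, and a shift in RNA per cell shared by most genes could not be seen. In 72.5% of genes the 4 libraries of the groups did not overlap under IMP1088, and in 69.0% with DMSO. The DMSO libraries gave 10499 calls (76.0%), with 38.8% of all genes higher and 37.3% lower, and 3308 differences of at least 2-fold (23.9%). With this background, a call for a single gene or list says little by itself, and the size of the difference and the test of its change carry the description. The change, meaning the difference under IMP1088 minus the difference with DMSO, passed for 1180 genes (8.54%). It was upward for 732 (5.3%) and downward for 448 (3.24%), and it reached 2-fold for 79 (0.572%). Among called genes the median size was 0.69 for the difference under inhibitor and 0.35 for the change, both on the log2 scale. The expression filter was passed by 684 genes with a high-MYC mean under 10, and by 330 with a medium-MYC mean under 10. For genes of that kind the filter fixed the direction of the difference in means, though not its size (8.20 against 11.8 for CD2BP2-DT). Requiring a mean of 10 in both groups left 12800 genes, of which 9802 were called under IMP1088 and 1207 had a called change.

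Most MYC-state differences persisted. A difference was classed as kept when it was called at both treatments with the same sign and its change was not called, and 8630 genes (62.5%) fell there, 4338 higher and 4292 lower at medium MYC. For 6077 of them (44.0% of all genes) the 95% interval of the change lay within 0.5 log2 units on either side of 0. The 1180 genes with a called change made up the other classes. The difference was smaller in size with inhibitor for 400 genes (2.9%) and larger for 707 (5.12%), and it was called in opposite directions at the 2 treatments for 73 (0.528%). Of the 400, 103 (0.746%) were no longer called with inhibitor and are termed lost, and of the 707, 144 (1.04%) were not called with DMSO and are termed appeared. Of 3308 differences that were at least 2-fold with DMSO, 2855 (86.3%) were kept, 178 shrank, 193 grew and 6 reversed. Across genes, which cannot stand as independent replicates, the log2 differences with and without inhibitor had a Pearson r of 0.957 and a Spearman rho of 0.94, and the 2 comparisons share no library. Over the 3216 genes called at both treatments with the same sign and at least 2-fold with DMSO, the median ratio of the inhibitor to the DMSO difference was 1.01, with quartiles of 0.899 and 1.12. The scatter of these differences therefore lies along the diagonal, with the shrunken and reversed genes set off from it.

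**Figure D1:**
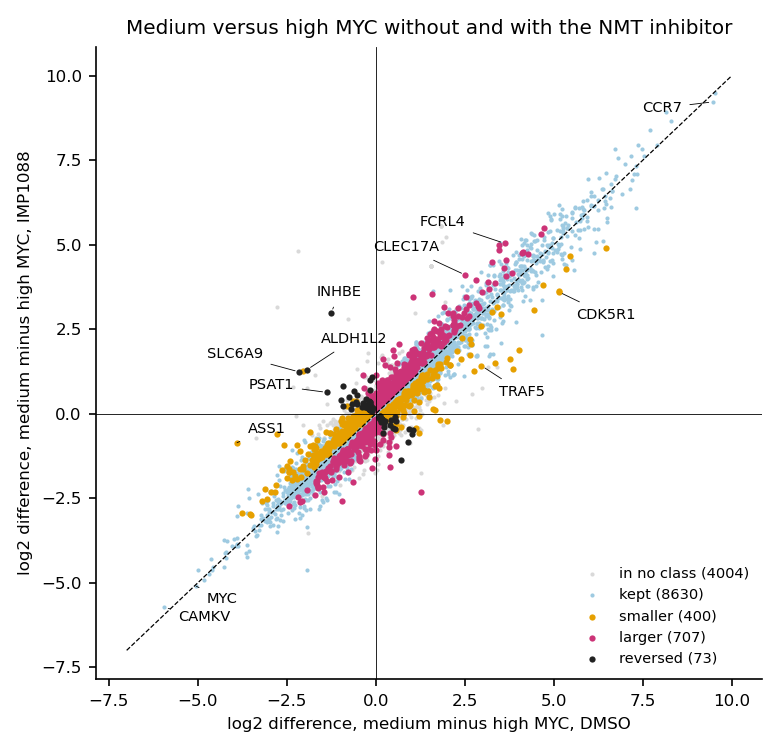
Log2 difference between medium and high MYC for each of the 13814 genes, with DMSO on the x axis and IMP1088 on the y axis; colours mark the 8630 kept, 400 smaller, 707 larger and 73 reversed differences, grey the rest, and the dashed line is equality. MYC, CAMKV and CCR7 lie near the line, whereas INHBE, SLC6A9, ALDH1L2 and PSAT1 lie in the upper left, lower at medium MYC with DMSO and higher with IMP1088.

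The genes with the highest differences were nearly silent at high MYC. CCR7, the chemokine receptor that guides lymphocytes to lymph nodes, was counted at 16.1, 23.3, 18.3 and 11.4 at high and 10319, 10972, 10799.7 and 10529 at medium MYC under IMP1088, a log2 difference of 9.23 ± 0.13 (limma adjusted p = 1.29e-23). With DMSO it was 9.47, and the groups were far apart at both treatments. ENTPD2, an enzyme that breaks down extracellular ATP, had 0, 2.22, 0.873 and 1.04 normalised counts at high and 1304, 1368, 1337 and 1344 at medium MYC, so it was at least 402-fold higher at medium MYC when high MYC was set to its floor of 3 reads per library. By the same bound, the chemokine CXCL9 was at least 160.0-fold, the prolactin receptor PRLR at least 160.4-fold, the scavenging chemokine receptor ACKR3 at least 147-fold and the ribonuclease gene ZC3H12C at least 107-fold higher. ACKR3 was at 0 in all 4 high-MYC libraries and at 467, 472, 515 and 504 in the medium-MYC libraries. None of these 6 genes had a called change.

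At the other end stood MYC and a group of genes that were nearly lost at medium MYC. CAMKV, a kinase-like vesicle protein, was counted at 785, 806, 812 and 804 at high and 8.16, 18.9, 16.7 and 15.1 at medium MYC, a log2 difference of -5.73 ± 0.17 (limma adjusted p = 3.04e-18) against -5.95 with DMSO. BZW2, a regulator of translation initiation, fell from 324, 308, 332 and 345 to 10.5, 9.93, 10.4 and 14.1 (log2 difference -4.76). The neuropeptide gene NPW (-4.61), the neuronal and podocyte gene DDN (-4.55) and the adaptor SH2D5 (-4.53) followed, with DMSO differences of -5.00, -4.58 and -4.27. In each of them every medium-MYC library lay below every high-MYC library, and no change was called.

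**Figure D2:**
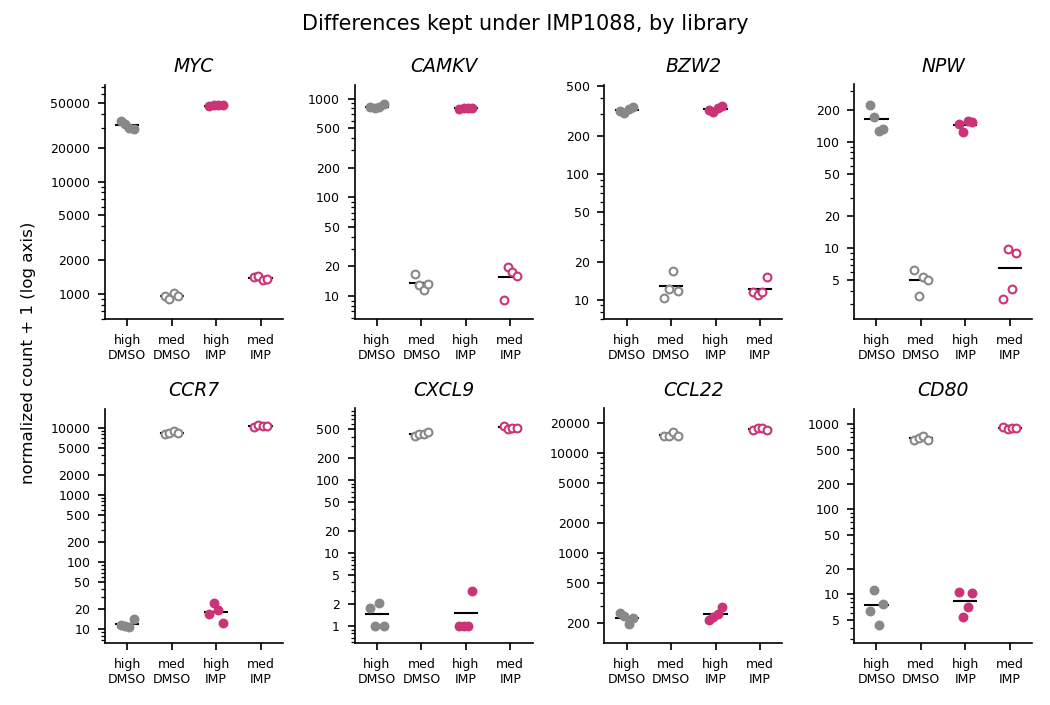
Normalised count plus 1 (log axis) of 8 genes whose difference was kept, in each library of the 4 groups; filled points are high MYC, open points medium MYC, grey DMSO and red IMP1088, and black bars are group means (n = 4). MYC, CAMKV, BZW2 and NPW are lower and CCR7, CXCL9, CCL22 and CD80 higher at medium MYC, with no overlap at either treatment.

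The growth programme of MYC kept its difference under IMP1088. Of 49 listed MYC target genes, all tested, 47 (95.9%) were lower at medium MYC and 2 higher, against 37.9% and 39.5% of all genes. Those 2 were CCND2, cyclin D2 (1.30), and TFRC, the transferrin receptor (0.13). The median log2 difference was -1.43 with inhibitor and -1.39 with DMSO (0.02 over all genes in both cases). The change was called upward for 4 (8.16%) and downward for 3 (6.12%), against 5.3% and 3.24% of all genes. Of the 49, 41 (83.7%) were kept, against 62.5% of all genes. TERT, the telomerase reverse transcriptase, was counted at 439, 473, 500.0 and 437 at high and 24.5, 18.9, 27.2 and 20.2 at medium MYC (log2 difference -4.30, limma adjusted p = 1.4e-17). ODC1, the first enzyme of polyamine synthesis, fell from 4131, 4073, 4102 and 4124 to 1167, 1129, 1221 and 1094 (-1.83 with inhibitor, -1.85 with DMSO). The nucleolar proteins RRP9 (-2.33) and FBL (-1.65), which process ribosomal RNA, were kept as well, with changes of -0.14 and 0.073. Exceptions were small: CDK4, the cyclin D kinase, had a fall that shrank from -0.41 with DMSO to -0.21 with inhibitor (change 0.21, limma adjusted p = 0.00692), and LDHA, lactate dehydrogenase A, had a larger fall with inhibitor, described below with glycolysis.

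All 79 cytosolic ribosomal protein genes were lower at medium MYC, against 37.9% of all genes. Their median log2 difference was -0.70 under IMP1088 and -0.81 with DMSO. The change was upward and called for 7 of them (8.86%, against 5.3% of all genes). The difference was kept for 72 (91.1%, against 62.5%), and the changes of all 79 were above 0 and at most 0.16. RPL14, a large-subunit protein, shifted from -1.35 with DMSO to -1.20 with inhibitor (change 0.16, limma adjusted p = 0.0103, and 0.0521 with a replicate block and a GC correction). Of 23 tested nucleotide synthesis genes, 17 (73.9%) were lower and 5 (21.7%) higher, against 37.9% and 39.5% of all genes. DHODH, which makes pyrimidines in mitochondria, fell by 2.07 on the log2 scale, PFAS, of purine synthesis, fell by 1.79, and neither had a called change. RRM2, the ribonucleotide reductase subunit made during DNA replication, was higher at medium MYC by 1.44 with inhibitor and 1.06 with DMSO (change 0.38, limma adjusted p = 4.74e-06). Within the MYC network, all 11 tested members passed, against 77.4% of all genes, with 7 lower and 4 higher. MXI1, a MAX partner that opposes MYC, fell by 2.20. MGA, another MAX partner, fell more with inhibitor (-1.04) than with DMSO (-0.80, change -0.25, limma adjusted p = 0.000794).

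The MYC E-box is the sequence that MYC and MAX contact, and 2 promoters that hold it are shown because they belong to a kept and to an enlarged fall. The letters searched were CACGTG on both strands, in windows from 250 bases before to 50 bases after each RefSeq start (build GRCh38.p14). It occurred in 7.43% of all 27305 promoters, in 10.5% of the 9905 that belong to tested genes, and in 16.1% of 884 promoters of genes kept at least 2-fold lower at medium MYC, against 6.45% of 1132 kept at least 2-fold higher. Of the MYC target list, 17 of 42 promoters (40.5%) held it. SRM, spermidine synthase, fell at medium MYC (-1.95 with inhibitor and -2.22 with DMSO) and is shown at chr1:11060149-11060268 on the minus strand. LDHA is shown at chr11:18394419-18394538 on the plus strand. Capitals mark the motif, which starts 199 bases before the SRM start and 87 before that of LDHA, and a match is a description of the letters, not a binding site.
SRM: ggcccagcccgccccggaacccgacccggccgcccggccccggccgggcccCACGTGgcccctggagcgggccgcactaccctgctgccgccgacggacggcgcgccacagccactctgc
LDHA: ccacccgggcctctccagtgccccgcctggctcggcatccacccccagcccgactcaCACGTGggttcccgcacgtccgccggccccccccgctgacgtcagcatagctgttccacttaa

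The EBNA2 programme also persisted. All 25 tested of 27 listed EBNA2-responsive genes were higher at medium MYC, against 39.5% of all genes, with a median log2 difference of 4.0 with IMP1088 and 4.14 with DMSO. The medians were the same when the 2 genes at the floor of 3 reads were set to their bound, and 3 of the 25 had a mean under 10 at high MYC. Of the 25, 21 (84%) were kept, 3 (12%) grew and 1 (4%), BIRC3, shrank. The shares of all genes were 62.5%, 5.12% and 2.9%. EBI3, a cytokine subunit named for its induction by the virus, was counted at 39.8, 39.9, 30.5 and 31.2 at high and 1574, 1544, 1541 and 1465 at medium MYC (log2 difference 5.41, limma adjusted p = 1.06e-19). CR2, the complement receptor used by the virus, was at 0 in every high-MYC library of both treatments and at 104, 93.4, 101 and 101 at medium MYC with inhibitor, at least 30.0-fold higher. BATF, a transcription factor of activated lymphocytes, rose from 24.7, 18.9, 24.4 and 20.8 to 170.1, 199, 222 and 208 (3.11 with inhibitor, 2.77 with DMSO). Those that rose more with inhibitor were FCER2, the low-affinity IgE receptor CD23 (change 0.50, limma adjusted p = 2.3e-05), the signalling lymphocyte receptor SLAMF1 (0.63, 0.00229) and the TNF receptor adaptor TRAF1 (0.45, 1.78e-05). The level of FCER2 at high MYC was 636 ± 32.3 with inhibitor and 1074 ± 55.0 with DMSO, and at medium MYC 4123 ± 93.7 and 4946 ± 345 (mean ± SD, n = 4), lower with inhibitor at both levels and by the larger factor at high MYC. Differences between treatments within a MYC level are given here as means and were not tested.

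Targets of NF-kappaB, the factor that conveys CD40 and viral signals in B cells, were all 29 higher at medium MYC, against 39.5% of all genes, with medians of 2.39 with IMP1088 and 2.48 with DMSO. Of these, 2 had a mean under 10 at high MYC, and 18 (62.1%) were kept, about the share of all genes (62.5%). CCL22, a chemokine of activated B cells, was counted at 216, 232, 248 and 289 and 16968, 17702, 17504 and 16872 (log2 difference 6.13, change 0.078). BCL2A1, a BCL2-family survival gene, rose by 6.57, and the NF-kappaB inhibitor gene NFKBIA by 2.69, without a called change. CFLAR, which blocks caspase-8, rose more with inhibitor (3.61 against 2.97, limma adjusted p of the change 7.82e-08). BIRC3, an NF-kappaB-induced ubiquitin ligase, rose less (2.06 against 2.66, limma adjusted p of the change 0.00178), and so did NFKB2, the p100 subunit gene (3.0 against 3.25, 0.0134). The change of NFKB2 did not pass with a replicate block (limma adjusted p = 0.0573). BIRC3 at high MYC was 732 ± 6.86 with inhibitor and 457 ± 75.3 with DMSO, whereas the medium-MYC means were 3051 ± 194 and 2876 ± 261.

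Of 15 tested costimulation and TNF-family genes, 14 (93.3%) were higher at medium MYC with inhibitor, against 39.5% of all genes. For 3 of the 15 the high-MYC mean was under 10, so the filter fixed the direction of the difference in means. The difference was kept for 11 (73.3%), against 62.5% of all genes, and 1, TNFSF14, was lost (log2 difference -0.037 with inhibitor, 0.30 with DMSO). The change of TNFSF14 passed narrowly (limma adjusted p = 0.0427) and did not pass when any of 11 of the 16 libraries was left out (0.0589 to 0.0961), with a replicate block (0.0741) or with DESeq2 (0.110). CD80, which gives T cells their second signal, was counted at 9.68, 4.44, 6.11 and 9.36 at high and 932, 886, 902 and 895 at medium MYC and was kept. CD86, its relative, rose by 2.98 with inhibitor and 2.49 with DMSO (change 0.49, limma adjusted p = 8.45e-05). All 17 tested chemokine and receptor genes were higher, against 39.5% of all genes, with medians of 4.70 with inhibitor and 4.02 with DMSO. For 6 of the 17 the high-MYC mean was under 10, and without such genes the inhibitor median was 2.17. The difference was kept for 16 (94.1%), against 62.5% of all genes. The exception was CXCR4, the receptor for CXCL12, which was counted at 983, 951, 1054 and 919 at high and 1534, 1533, 1486 and 1446 at medium MYC with inhibitor. Its difference was 0.62 with inhibitor and 1.15 with DMSO, where the high-MYC mean was 583 ± 18.0. Both lists share members with the EBNA2 and NF-kappaB lists, such as CD40, CD58, CCL22 and CCR7, so their counts are not separate from those above.

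RBPJ, the protein that carries EBNA2 to DNA, binds a core written TGGGAA, and the 2 promoters below show it in EBNA2-responsive genes whose rise was kept. The core is short: on both strands it occurred in 24.3% of all promoters and 21.9% of those of tested genes, in 7 of 21 (33.3%) of the EBNA2 list and in the same share, 14 of 42, of the MYC target list, whose genes were mostly lower. HES1, the Notch and RBPJ target gene, rose by 2.29 with inhibitor and 2.51 with DMSO and is shown at chr3:194136021-194136140 on the plus strand. BATF is shown at chr14:75522299-75522418, also on the plus strand. Capitals mark the core, which HES1 holds 2 times and BATF on the opposite strand, read as TTCCCA.
HES1: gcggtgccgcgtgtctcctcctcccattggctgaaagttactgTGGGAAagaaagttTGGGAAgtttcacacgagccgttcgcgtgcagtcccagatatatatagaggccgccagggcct
BATF: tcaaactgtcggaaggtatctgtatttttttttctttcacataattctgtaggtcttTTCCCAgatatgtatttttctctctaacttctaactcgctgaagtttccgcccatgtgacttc

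**Figure D3:**
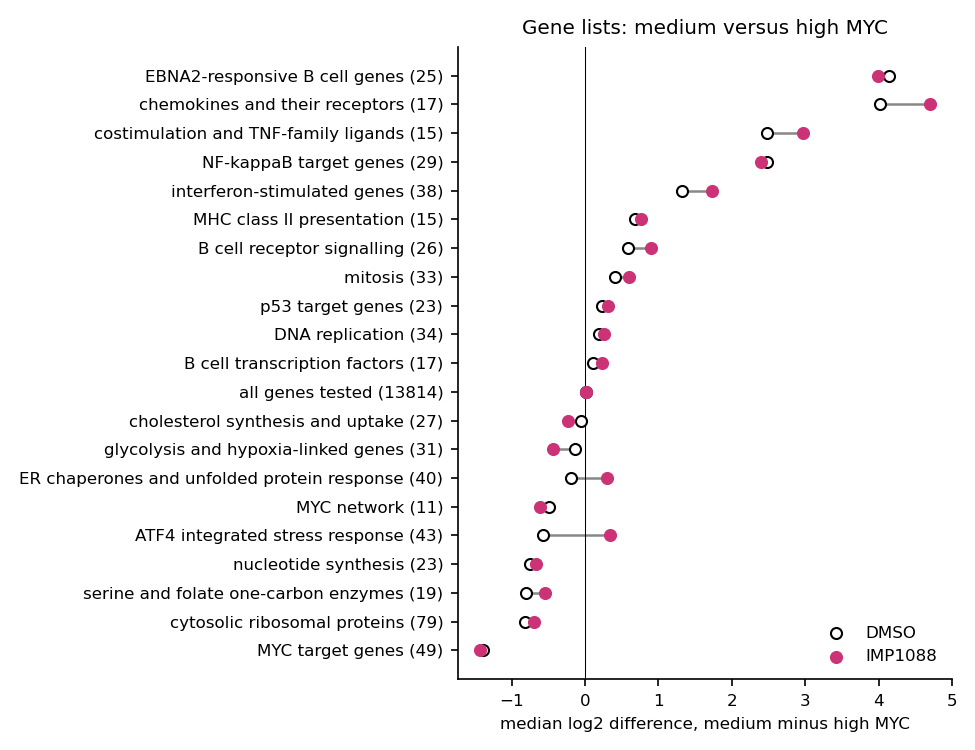
Median log2 difference between medium and high MYC over the tested members of each gene list (number in brackets), with DMSO (open circles) and IMP1088 (filled circles). The MYC and EBNA2 lists lie at about the same place at both treatments, and the medians of the ATF4 and endoplasmic reticulum lists are on different sides of 0, -0.57 and -0.19 with DMSO and 0.34 and 0.31 with IMP1088.

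The clearest departure from persistence was in genes of the ATF4 response. Of 43 tested members of the list, 34 (79.1%) had a called upward change and none a downward one, against 5.3% and 3.24% of all genes, and the median change was 0.54. With DMSO 16 were higher and 26 lower at medium MYC (median -0.57), and with IMP1088 24 were higher and 18 lower (median 0.34). By class, 16 differences shrank, 11 grew, 7 reversed and 8 were kept. The inhibitor median was -0.039 when only members with a mean of at least 100 were tested. ATF4 mRNA itself was lower at medium MYC, at 1956, 1915, 2029 and 1940.0 against 2439, 2299, 2273 and 2270.2 with inhibitor, and its fall shrank from -0.67 to -0.24 (change 0.42, limma adjusted p = 2.42e-06).

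The 16 members whose difference shrank included ASS1, PHGDH, SLC7A5 and CEBPB. ASS1, which makes argininosuccinate on the way to arginine, was counted at 13.6, 15.4, 19.3 and 14.8 at medium MYC with DMSO and at 139, 128, 152 and 127 with IMP1088, while the high-MYC libraries gave 254, 262, 239 and 234 and 251, 241, 258 and 241. Its difference went from -3.90 to -0.86, a change of 3.04 ± 0.14 (limma adjusted p = 6.64e-12), and the high-MYC libraries of the 2 treatments overlapped. PHGDH, the first enzyme of serine synthesis, went from -1.39 with DMSO to -0.54 with inhibitor (change 0.85, limma adjusted p = 2.52e-08). SLC7A5, the large neutral amino acid transporter, went from -3.11 to -2.23, and the transcription factor CEBPB from -1.64 to -0.77.

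The reversed differences with the highest upward changes were those of INHBE, SLC6A9, ALDH1L2 and PSAT1, of which all but INHBE were on the list. INHBE, an activin subunit gene induced by ATF4, was lower at medium MYC with DMSO (7.30, 11.1, 6.13 and 9.85 against 24.9, 22.5, 17.7 and 21.2) and higher with inhibitor (105, 135, 138 and 121 against 16.1, 12.2, 15.7 and 15.6). Its log2 differences were -1.25 (-0.77 with 10 added to the values) and 2.98, a change of 4.24 ± 0.27 (limma adjusted p = 9.65e-10). ALDH1L2, a mitochondrial folate enzyme, was counted at 96.8, 113, 82.9 and 101 at high and 224, 260.3, 255 and 235 at medium MYC with inhibitor, and its difference turned from -1.93 to 1.30. PSAT1, the second enzyme of serine synthesis, turned from -1.38 to 0.63, with 245, 256, 211 and 242 at medium MYC with DMSO and 843, 842, 853 and 819.8 with inhibitor. The glycine transporter SLC6A9 turned from -2.15 to 1.24 (limma adjusted p of the change 1.98e-06). ASNS, asparagine synthetase, was 268 ± 9.37 at medium and 301 ± 4.01 at high MYC with DMSO, and 570.4 ± 29.8 and 286 ± 12.6 with inhibitor, a turn from -0.17 to 0.99 (limma adjusted p of the change 7.49e-10). For each of these 5 genes the medium-MYC means at the 2 treatments lay further apart, as a ratio, than the high-MYC means.

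The 11 members whose difference grew included DDIT3 and CTH. DDIT3, the transcription factor CHOP, was counted at 49.5, 42.1, 38.4 and 34.3 at high and 142, 150.0, 165 and 157 at medium MYC with inhibitor, and its difference was 1.89 against 0.48 with DMSO (change 1.41, limma adjusted p = 0.00145). The small DMSO difference of DDIT3 lost its call when any of 6 DMSO libraries, all but the second of each MYC level, was left out (limma adjusted p 0.0547 to 0.0916), with a replicate block (0.0635) and with quantile normalisation (difference 0.25, adjusted p 0.221). CTH, which makes cysteine from cystathionine, rose by 3.45 with inhibitor and 1.05 with DMSO. With quantile normalisation the DMSO difference of CTH was 0.33 and was not called (limma adjusted p = 0.25), while its change was 2.67. CHAC1, which degrades glutathione, rose by 3.63 with inhibitor and 1.60 with DMSO, and whether its change of 2.02 passed depended on the processing. It did not pass as fitted (limma adjusted p = 0.0668), but passed with edgeR (adjusted p = 0.0120), DESeq2 (0.000121), quantile normalisation (0.0051), 10 added to the values (6.32e-06) and a replicate block (0.0392). Without the fourth high-MYC DMSO library it passed as well (2.70, limma adjusted p = 0.000344), and the DMSO difference of CHAC1 was then 0.92, against 0.79 with quantile normalisation, where it was not called, and 0.62 with 10 added. No change was called for some members: TRIB3, a pseudokinase that feeds back on ATF4, had a change of 0.16 (95% interval -0.056 to 0.37), and SLC7A11, the cystine transporter, one of -0.18 (-0.47 to 0.11). Of 19 tested serine and folate enzymes, 8 (42.1%) had an upward and none a downward change, against 5.3% and 3.24% of all genes. The difference was kept for 9 (47.4%, against 62.5%), among them GCSH of the glycine cleavage system (-1.97 with inhibitor, -1.97 with DMSO).

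**Figure D4:**
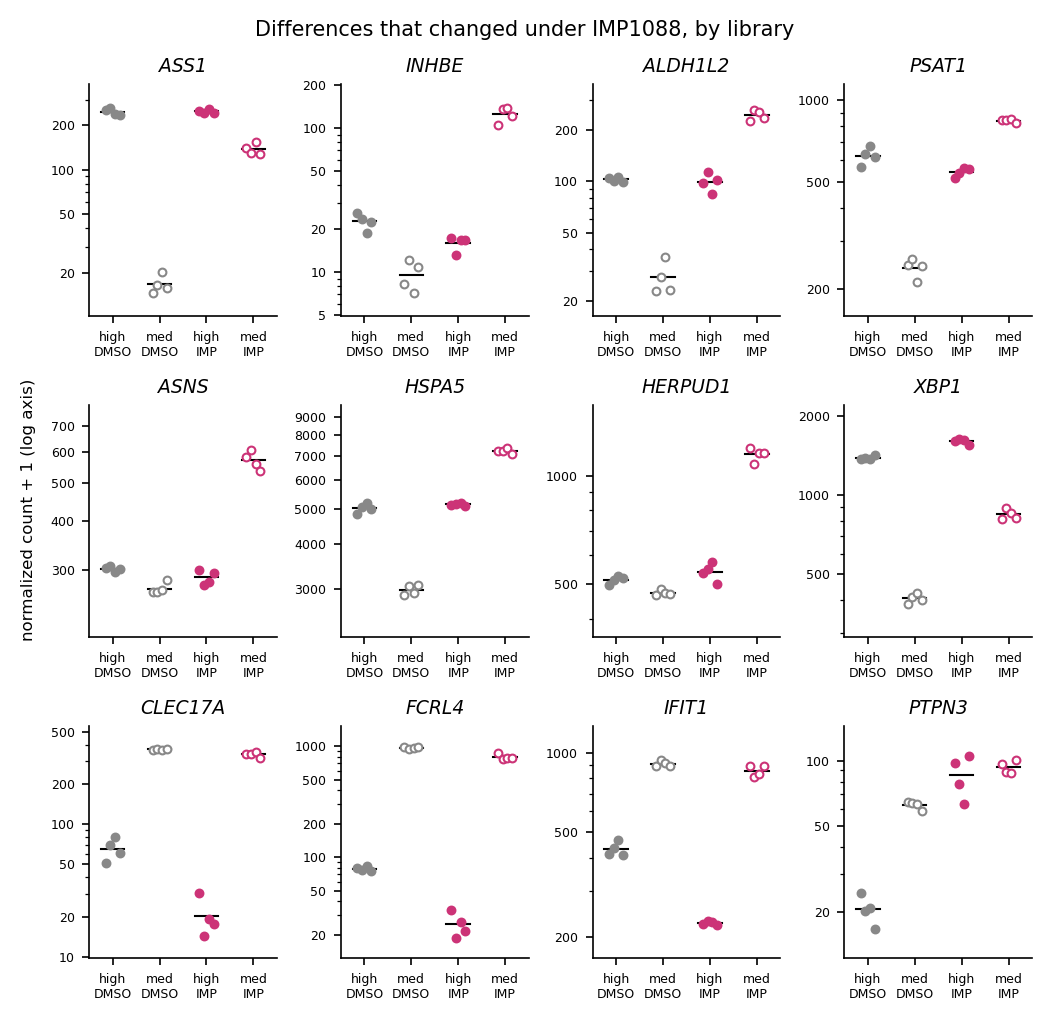
Normalised count plus 1 (log axis) of 12 genes whose difference changed under IMP1088, in each library of the 4 groups; filled points are high MYC, open points medium MYC, grey DMSO and red IMP1088, and black bars are group means (n = 4). ASS1, INHBE, ALDH1L2, PSAT1, ASNS, HSPA5 and HERPUD1 differ between treatments mainly at medium MYC, whereas CLEC17A, FCRL4, IFIT1 and PTPN3 differ mainly at high MYC.

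Genes of the endoplasmic reticulum moved in the same direction. Of 40 listed chaperones and unfolded protein response genes, all tested, 29 (72.5%) had a called upward change and none a downward one, against 5.3% and 3.24% of all genes, with a median change of 0.41. With DMSO 14 were higher and 23 lower at medium MYC, and with IMP1088 25 were higher and 12 lower. Among the 40 differences, 9 reversed, 9 shrank, 11 grew and 9 were kept. HSPA5, the chaperone BiP, was counted at 5142, 5163, 5203 and 5101 at high and 7245, 7231, 7386 and 7115 at medium MYC with inhibitor, against 4831, 5066, 5183 and 4998 and 2891, 3058, 2922 and 3081 with DMSO. Its difference turned from -0.75 to 0.49 (change 1.24 ± 0.039, limma adjusted p = 6.37e-15), and the groups did not overlap at either treatment. HERPUD1, of the degradation machinery, turned from -0.12 to 1.09, with medium-MYC values of 1195, 1078, 1154 and 1158 with inhibitor. The small DMSO fall of HERPUD1 was not called without the third high-MYC DMSO library (limma adjusted p = 0.0529), with edgeR (0.0506), DESeq2 (0.0692), quantile normalisation (0.0565) or a GC correction (0.108), so a reversal was not called there, whereas its change passed in each of these. The co-chaperone DNAJB9 turned from -0.61 to 0.66, SDF2L1 from -0.97 to 0.40, the secreted factor MANF from -0.91 to 0.22 and HSP90B1, the chaperone GRP94, from -0.25 to 0.23. With quantile normalisation the inhibitor difference of SDF2L1 was 0.31 and was not called (limma adjusted p = 0.0538).

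Other members kept their sign. CALR, calreticulin, rose by 0.89 with inhibitor and 0.22 with DMSO (change 0.67, limma adjusted p = 5.72e-11). CRELD2, a disulphide isomerase-like protein, rose from 71.0, 58.8, 63.7 and 81.1 to 214, 254, 231 and 204 with inhibitor (1.71) and by 0.52 with DMSO. XBP1, the transcription factor of the pathway and of plasma cells, stayed lower at medium MYC, at 811, 889, 857 and 815 against 1603, 1626, 1619 and 1546 with inhibitor, and its fall shrank from -1.77 to -0.92 (change 0.85, limma adjusted p = 7.49e-10). DERL3, of retrotranslocation, shrank from -2.50 to -1.91. The fall of MZB1, a chaperone of antibody assembly that is not on the list, shrank from -2.43 to -1.63. The fall of the plasma cell marker JCHAIN shrank beside these genes, by a change of 0.52, and the part of plasma cell markers in the list's change was not tested.

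Promoters of 2 members of the ATF4 list and 3 of the endoplasmic reticulum list are shown, because their genes changed upward and each holds the element named for its pathway. The C/EBP-ATF element, searched as TGATGNAAN on both strands, occurred in 3.67% of all promoters, 1.65% of those of tested genes, 20 of 575 (3.48%) of genes with an upward change and 8 of 38 (21.1%) of the ATF4 list, against 1 of 36 of the endoplasmic reticulum list. The endoplasmic reticulum stress element, searched as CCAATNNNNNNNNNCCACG on both strands, was rare, in 22 of all 27305 promoters and in 14 of the 9905 of tested genes. It was held by 7 of 36 promoters (19.4%) of the endoplasmic reticulum list. Of those 14 genes 10 had a called upward change and none a called downward one, against 5.3% and 3.24% of all genes. The 10 were SERP1, EIF2A, CANX, HSPA5, TRIM5, HSP90B1, FICD, CALR, XBP1 and CRELD2. Of these, CANX, HSPA5, HSP90B1, CALR, XBP1 and CRELD2 are on that list, so their changes were already counted there. SERP1 and EIF2A lie head to head and their windows overlap. ASNS is shown at chr7:97872413-97872532 (minus strand), AARS1, the alanyl-tRNA synthetase gene (from -0.19 to 0.20), at chr16:70289631-70289750 (minus), HSPA5 at chr9:125241344-125241463 (minus), XBP1 at chr22:28800570-28800689 (minus) and CRELD2 at chr22:49918503-49918622 (plus). Capitals mark the C/EBP-ATF element in ASNS and AARS1 and the stress element in the other three, with AARS1 and CRELD2 carrying theirs on the opposite strand.
ASNS: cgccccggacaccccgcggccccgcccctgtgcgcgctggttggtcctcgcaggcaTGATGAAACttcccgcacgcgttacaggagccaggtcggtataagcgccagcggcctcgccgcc
AARS1: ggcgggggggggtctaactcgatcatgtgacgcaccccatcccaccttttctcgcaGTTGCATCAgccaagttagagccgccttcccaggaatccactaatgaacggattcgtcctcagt
HSPA5: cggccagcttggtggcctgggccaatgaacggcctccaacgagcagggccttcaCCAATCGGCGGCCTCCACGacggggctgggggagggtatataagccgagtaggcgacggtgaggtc
XBP1: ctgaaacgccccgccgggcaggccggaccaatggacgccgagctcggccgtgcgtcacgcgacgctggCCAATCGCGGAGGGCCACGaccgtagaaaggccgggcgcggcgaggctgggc
CRELD2: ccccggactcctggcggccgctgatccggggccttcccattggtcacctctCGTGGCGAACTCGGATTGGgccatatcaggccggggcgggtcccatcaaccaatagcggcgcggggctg

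Cholesterol synthesis genes moved the other way. Of 27 tested members 15 (55.6%) had a called downward change and none an upward one, against 3.24% and 5.3% of all genes. With DMSO 9 were higher and 9 lower at medium MYC, and with IMP1088 7 were higher and 18 lower (medians -0.06 and -0.24). SCD, which desaturates fatty acids, was counted at 16315, 16297, 16403 and 15709 at high and 4166, 4243, 4190.4 and 4165 at medium MYC with inhibitor, and its fall grew from -1.23 to -1.95 (change -0.72, limma adjusted p = 1.19e-11). MSMO1, a sterol oxidase, did not differ detectably with DMSO (0.009, limma adjusted p = 0.839) and was lower at medium MYC with inhibitor, at 856, 872, 832 and 831 against 1278, 1249, 1241 and 1141 (-0.53). The early pathway enzymes HMGCS1 (from -1.04 to -1.34) and SQLE (-0.35 to -0.61) fell more with inhibitor. MVD, which makes isopentenyl pyrophosphate, was the 1 reversed member (0.18 with DMSO, -0.14 with inhibitor). STARD4, a cholesterol carrier, was higher at medium MYC by 2.72 and was kept.

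Glycolysis and hypoxia-linked genes were split. Of 31 tested, 14 (45.2%) had a called downward and 1 an upward change, against 3.24% and 5.3% of all genes. LDHA, whose promoter is printed above, was counted at 13421, 13468, 13876 and 13066 at high and 8461, 7604, 8001 and 7996 at medium MYC with inhibitor, and its fall grew from -0.33 to -0.75 (change -0.42, limma adjusted p = 2.41e-06). With quantile normalisation the LDHA differences were -0.47 and, with DMSO, -0.070. SLC16A3, a lactate exporter, went from -0.15 with DMSO to -0.88 with inhibitor, and the prolyl hydroxylase EGLN3, itself a target of hypoxia signalling, from -2.08 to -2.57. The DMSO difference of SLC16A3 was not called with a GC correction (-0.10, limma adjusted p = 0.0772). PGK1, phosphoglycerate kinase, went from -0.21 to -0.59. The glucose transporter SLC2A1 lost its rise (-0.058 with inhibitor, 0.23 with DMSO). In contrast GAPDH, the enzyme before PGK1 in the pathway, was slightly higher at medium MYC at both treatments (0.13 with inhibitor and 0.22 with DMSO) and was kept.

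Interferon-stimulated genes were mostly higher at medium MYC, and the difference grew for 23 of them. Of 38 tested, 36 were higher with IMP1088, against 39.5% of all genes (median 1.73 against 1.32 with DMSO), and 2 had a high-MYC mean under 10. A called upward change was found for 23 (60.5%) and a downward one for none, against 5.3% and 3.24% of all genes. IFIT1, which binds foreign RNA caps, was counted at 224, 229.6, 228 and 222 at high and 892, 805, 829 and 887 at medium MYC with inhibitor, and at 412, 436, 465 and 410.2 and 889, 935, 915 and 889.6 with DMSO. Its change of 0.84 (limma adjusted p = 2.52e-08) thus came with high-MYC libraries that were lower under inhibitor, while the medium-MYC libraries were close to their DMSO level. OASL (2.97 with inhibitor, 2.02 with DMSO) and the antiviral GTPase MX1 (1.25 and 0.83) changed upward as well. GBP1, a guanylate-binding protein, had a difference of 6.60 with inhibitor and 6.62 with DMSO, although its medium-MYC mean was 387 ± 24.8 with inhibitor and 1431 ± 18.3 with DMSO.

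FCRL4 and CLEC17A, which are on none of the lists, had differences that grew. FCRL4, an Fc receptor-like protein of memory B cells, was counted at 32.3, 17.7, 25.3 and 20.8 at high and 871, 773, 789.6 and 786 at medium MYC with inhibitor, and its difference grew from 3.62 to 5.04 (change 1.42, limma adjusted p = 3.61e-06). CLEC17A, a B cell lectin, grew from 2.51 to 4.11, with high-MYC means of 19.3 ± 6.80 with inhibitor and 64.4 ± 12.4 with DMSO and medium-MYC means of 336 ± 14.8 and 368 ± 3.26. Of 26 tested B cell receptor signalling genes, 18 (69.2%) were higher and 7 (26.9%) lower at medium MYC with inhibitor. The shares of all genes were 39.5% and 37.9%. An upward change was called for 11 (42.3%) and a downward one for 1 (3.85%), against 5.3% and 3.24% of all genes, and 14 had none that was called. The adaptor BLNK turned from -0.19 with DMSO to 0.13 with inhibitor. LYN, a myristoylated Src-family kinase, rose by 1.41 with inhibitor and 1.07 with DMSO (change 0.34, limma adjusted p = 8.11e-06), and the inhibitory receptor CD22 by 1.56 and 1.28. Of 15 genes of MHC class II presentation, 14 (93.3%) were higher, against 39.5% of all genes. An upward change was called for 5 (33.3%), against 5.3% of all genes, and 10 had none that was called. An example of the former was HLA-DRB1 (1.13 with inhibitor, 0.86 with DMSO).

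Among 17 tested B cell transcription factors, 10 (58.8%) were higher and 5 (29.4%) lower at medium MYC with inhibitor. The shares of all genes were 39.5% and 37.9%. Of the 17 differences 8 grew, against 5.12% of all genes. IRF4, which is switched on by EBNA2 and NF-kappaB signals, was counted at 2391, 2421, 2339.6 and 2350.3 at high and 12920.4, 13219.9, 13380.5 and 13002 at medium MYC and was kept (2.47, change 0.079). PAX5, the factor that maintains B cell identity, rose by 0.55 with inhibitor and 0.38 with DMSO, and SPIB by 0.72 and 0.34. The lymphoid factor IKZF1 differed with inhibitor (0.21) and not detectably with DMSO (-0.049). BCL11A, a transcriptional repressor of lymphoid development, fell more with inhibitor (-1.63 against -1.11, limma adjusted p of the change 0.000148).

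Mitosis and DNA replication genes were mostly higher at medium MYC. Of 33 mitosis genes, 29 were higher, against 39.5% of all genes (median 0.60 with IMP1088 and 0.41 with DMSO), and 14 (42.4%) had a called upward change, against 5.3%. The kinetochore gene NDC80 was counted at 305, 316, 291 and 275 at high and 678, 695, 661 and 641 at medium MYC with inhibitor (1.17 against 0.82 with DMSO, limma adjusted p of the change 0.00310). Of 34 DNA replication genes, 25 (73.5%) were higher (median 0.26 and 0.19) and 26 (76.5%) were kept, against 39.5% and 62.5% of all genes. An upward change was called for 3 (8.82%), near the 5.3% of all genes. GINS4, a subunit of the replicative helicase complex, rose by 0.84 with inhibitor and 0.65 with DMSO and was kept. Of 23 tested p53 targets 15 (65.2%) were kept, near the 62.5% of all genes, with FAS, the death receptor, at 3.07 with inhibitor and 3.01 with DMSO and the cell cycle inhibitor CDKN1A at 0.59 and 0.42.

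**Figure D5:**
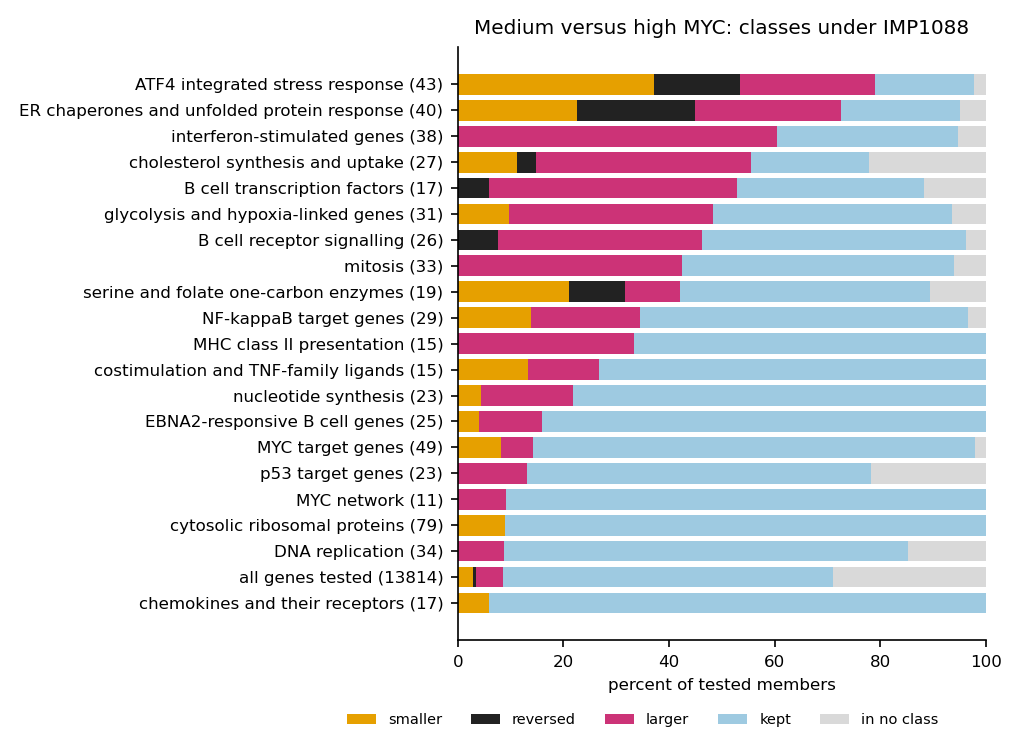
Share of each list's tested members (number in brackets) whose difference was smaller (lost included), reversed, larger (appeared included) or kept under IMP1088, in percent; the rest were in no class. Of all 13814 genes 62.5% were kept, whereas 7 of 43 ATF4 genes and 9 of 40 endoplasmic reticulum genes were reversed, and 23 of 38 interferon-stimulated genes were larger.

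Other differences shrank without belonging to a list. TRAF5, an adaptor of TNF-family receptors, was counted at 141, 95.4, 114 and 114 at medium MYC with inhibitor and 334, 369.8, 353 and 352 with DMSO, while its high-MYC libraries gave 36.6, 49.9, 38.4 and 45.7 and 40.7, 41.6, 38.6 and 58.1. Its rise shrank from 2.97 to 1.42 (limma adjusted p of the change 1.1e-05). CDK5R1, the activator of the kinase CDK5, shrank from 5.14 to 3.61, with medium-MYC values of 267, 294, 272 and 281 with inhibitor. FRMPD2, a scaffold protein, grew from 3.47 to 4.85. Some reversals ran downward. MBNL1-AS1, an RNA antisense to MBNL1, was counted at 69.9, 73.2, 73.3 and 86.3 at high and 33.8, 28.8, 29.2 and 23.2 at medium MYC with inhibitor and turned from 0.71 (0.45 with quantile normalisation) to -1.37, and the flagellar gene IQCD turned from 0.94 to -0.46.

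Few differences were lost or appeared. A gene called at one treatment alone is not shown to differ between treatments: 1124 genes were called with IMP1088 only, of which 144 had a called change, and 936 with DMSO only, of which 103 had one. PTPN3, a tyrosine phosphatase, led the 103 lost differences, with 96.8, 76.5, 62.0 and 104 at high and 95.5, 87.4, 86.7 and 99.8 at medium MYC with inhibitor, where the groups overlapped, and means of 19.5 ± 3.16 and 61.4 ± 2.73 with DMSO. Its difference went from 1.62 to 0.15 (limma adjusted p of the change 8.69e-05). The promoter-linked RNA BMP2K-DT went from 1.07 to 0.072, and FMN1, a formin, from -0.95 to -0.11. CCR2, the receptor for monocyte chemokines, led the upward appearances, at 39.8, 28.8, 30.5 and 44.7 at high and 75.7, 69.5, 60.6 and 65.5 at medium MYC with inhibitor, and means of 94.3 ± 13.3 and 98.6 ± 7.58 with DMSO. INSIG1-DT, divergent to the sterol sensor gene INSIG1, appeared downward (-0.78 with inhibitor, 0.19 with DMSO), as did STAM-DT (-1.04 and -0.23, although its DMSO difference was -0.45 and called with quantile normalisation) and, at higher counts, KANK2, an actin regulator (-0.87 and -0.084). Long noncoding RNAs made up 11.5% of the genes tested and 54 of the 1180 called changes (4.58%). Of these 54, 16 changed upward and 38 downward, against 732 and 448 of all genes.

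At the edge of the expression filter, RPL4P5 and CD2BP2-DT lay just inside with means of 10.0 and GBP5 and KMT5AP3 just outside with means of 9.99 and 9.97. GBP5, an interferon-induced gene, was at 0 at high MYC and at a mean of 20.0 at medium MYC, and was not tested. Exons of ALDH1L2, ASNS, BLNK, BZW2, CALR, CCND2, CD22, CD80, CDK4, CDKN1A, CEBPB, CFLAR, CRELD2, DDIT3, DDN, DERL3, DNAJB9, FAS, GAPDH, GCSH, GINS4, HMGCS1, HSP90B1, IKZF1, IQCD, JCHAIN, MBNL1-AS1, MGA, MX1, MXI1, NMT1, NMT2, PAX5, PGK1, RRM2, SLC16A3, SLC2A1, SLC6A9, SLC7A11, SLC7A5, SPIB and STARD4 overlap those of another gene in GENCODE release 29, and whether the counting used strand is not given in the sources used here, so reads of these genes and of their neighbours cannot be told apart with certainty. AARS1, ASNS, ASS1, ATF4, CCND2, CDK4, EGLN3, GAPDH, GBP1, GCSH, IFIT1, LDHA, PGK1, PSAT1, RPL14, RRM2, SCD, SLC7A5, SRM and XBP1 have pseudogenes named after them that could share reads. The kind and place of these pseudogenes were not checked.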

How the data were processed

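RNA-seq was described in 16 libraries of P493-6 cells, 4 in each of 4 groups taken from the labels. The deposited table holds a normalised count per Ensembl gene, a non-negative signal; the submitters' processing notes name STAR 2.5.2a, RSEM 1.2.31, DESeq2 1.16.1 and the build GRCh38, without a role or order. The annotation and the use of strand in counting are not given in the sources used here. Every value was a whole multiple of 1 step per library (100% of values, within 1e-06), so whole reads could be recovered. These steps matched median-of-ratios size factors computed from the recovered reads. Depth was 8755296 to 13858534 reads per library, and counts of 10 or fewer reads carry wide counting error.

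Genes whose mean over the 8 inhibitor libraries was 10 or more were tested with limma 3.58.1 (R 4.3.3) on log2 of the value plus 1, with a mean trend. All 16 libraries entered 1 fit with 4 group means, tests were two-sided and p-values were adjusted by Benjamini and Hochberg over all tested genes. A fold change on this scale understates the change of low genes. An adjusted p under 0.05 is a call, and intervals are 95%. edgeR 4.0.16 (quasi-likelihood, TMM) and DESeq2 1.42.0 on the recovered reads called 10654 and 10343 genes under inhibitor, 10588 and 10223 with DMSO, and 1219 and 1026 for the change. Further alternatives were pseudocounts, filters, scalings, the spread model, a replicate block and leaving out each library, and, chosen after seeing the data, a GC correction and a mean of 10 in both inhibitor groups. The fits were tested on simulated data. The detection floor of a group was 3 reads in each of its libraries.

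Members, gene lists and tests were chosen with earlier results of these data known. Genes named by rule have a mean of at least 50. They are the 6 highest and 6 lowest differences under inhibitor without overlap, the 6 largest changes of each class, and in each list the 2 largest differences and the 2 largest changes. MYC, NMT1, NMT2 and the genes at the edge of the filter are named at any level. Not every gene so selected is printed, and 43 further genes, 2 of them with a mean under 50 (CR2 and CTH), were chosen after their values were seen. Symbols came from a gene name table (13675 of the tested genes), positions from GENCODE release 29, and promoters from RefSeq (GRCh38.p14), which matched 9905 tested genes by symbol.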

Additional observations from a re-analysis of the deposited data

Results flagged for a closer look

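The test of the change between treatments passed for 1180 genes, and the following of them are named in the text, each with its change in log2 units, the difference between medium and high MYC with IMP1088 minus that with DMSO. Upward changes above 1 on the log2 scale among the genes named were those of INHBE (4.24), SLC6A9 (3.39), ALDH1L2 (3.24), ASS1 (3.04), CTH (2.41), PSAT1 (2.01), CLEC17A (1.59), FCRL4 (1.42), DDIT3 (1.41), FRMPD2 (1.39), SDF2L1 (1.37), DNAJB9 (1.27), HSPA5 (1.24), HERPUD1 (1.21), CRELD2 (1.19), ASNS (1.163) and MANF (1.13). Below them came OASL (0.94), SLC7A5 (0.88), CEBPB (0.88), PHGDH (0.85), XBP1 (0.85), CCR2 (0.85), IFIT1 (0.84), FMN1 (0.83), MZB1 (0.80), CALR (0.67), CFLAR (0.63) and SLAMF1 (0.63). Smaller upward changes were those of DERL3 (0.59), JCHAIN (0.52), FCER2 (0.50), CD86 (0.49), HSP90B1 (0.48), TRAF1 (0.45), ATF4 (0.42), MX1 (0.42), AARS1 (0.39), RRM2 (0.38), SPIB (0.37) and NDC80 (0.35). The lowest upward changes were those of LYN (0.34), BLNK (0.32), CD22 (0.27), HLA-DRB1 (0.27), IKZF1 (0.26), CDK4 (0.21), PAX5 (0.17) and RPL14 (0.16). Downward changes beyond -1 were those of MBNL1-AS1 (-2.08), TRAF5 (-1.55), CDK5R1 (-1.53), PTPN3 (-1.47) and IQCD (-1.39). Next came BMP2K-DT (-0.99), INSIG1-DT (-0.96), STAM-DT (-0.82), KANK2 (-0.79), SLC16A3 (-0.73), SCD (-0.72), BIRC3 (-0.61), MSMO1 (-0.54), CXCR4 (-0.53) and BCL11A (-0.52). The mildest downward changes were those of EGLN3 (-0.49), LDHA (-0.42), PGK1 (-0.39), TNFSF14 (-0.34), MVD (-0.32), HMGCS1 (-0.30), SLC2A1 (-0.29), SQLE (-0.26), NFKB2 (-0.25) and MGA (-0.25).

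In 34 of the 476 groups of 4 libraries screened (119 genes), the highest or lowest library lay farther from the rest than the critical value for 4 samples allows, and chance gives about 1 in 20 groups. The normalised count of that library is given for each. In medium-MYC DMSO libraries these were ASNS (281), ATF4 (1623), BIRC3 (2489), BLNK (807), CCND2 (13478), CEBPB (33.3), ENTPD2 (1409.9), FCER2 (5463), FRMPD2 (118), LYN (3844), NFKB2 (2449), ODC1 (1137), PGK1 (6639.7), PHGDH (311), SCD (8039.7), STARD4 (4521) and TERT (27.1). High-MYC DMSO libraries gave ACKR3 (1.51), ATF4 (2356), CCR2 (114), DDIT3 (56.2), TRAF5 (58.1) and ZC3H12C (0.753). Among the inhibitor libraries they were CXCL9 (2.08), GAPDH (19820.1), INHBE (12.2), SCD (15709), SLC7A11 (203) and SRM (1675) at high MYC and BZW2 (14.1), DHODH (69.9), FAS (841), FCRL4 (871) and GINS4 (474) at medium MYC. The medium-MYC DMSO group gave 17 of the 34.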

How the results depend on the processing

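Calls for the difference under IMP1088, the difference with DMSO and the change, and all 6 classes, stayed within 1.5 times of the reported counts under each alternative run, except that 470 differences were larger with a GC correction and a replicate block together, and that 95 appeared with the replicate block and 89 with both. The cause was not tested. Leaving out 1 library gave 10390 to 10473 calls under inhibitor, 10222 to 10384 with DMSO and 1018 to 1348 for the change. The classes then held 8436 to 8614 kept, 347 to 454 smaller, 604 to 820 larger, 63 to 73 reversed, 77 to 122 lost and 114 to 169 appeared differences. Replicate numbers share only a number: residuals of same-numbered libraries correlated at -0.0854 to 0.057 with inhibitor and -0.0815 to 0.259 with DMSO, and 0 and 1 of the 4 medium-MYC libraries were most like their own number. A replicate block gave 10490 calls under inhibitor, 10278 with DMSO and 835 for the change, and 810 for the change with a GC correction added. Quantile normalisation turned the split under inhibitor to 5116 higher and 5689 lower, and edgeR gave 646 upward and 573 downward changes. Signs of values that were not called turned with quantile normalisation for PTPN3 under inhibitor (-0.0081), BMP2K-DT under inhibitor (-0.091) and CCR2 with DMSO (-0.068). They also turned when 1 library was left out, over which BMP2K-DT under inhibitor ranged from -0.020 (without the fourth high-MYC inhibitor library) to 0.18, TNFSF14 under inhibitor from -0.073 to 0.011 (without the second medium-MYC inhibitor library), and MSMO1 with DMSO from -0.0092 to 0.024 (below 0 without high-MYC library 1 or 3 or medium-MYC library 4). The median of the ATF4 list under inhibitor was -0.039 with a mean of at least 100. Among checks of single named genes, 8112 kept their call and sign, 39 lost a call, 9 gained one and 8 turned sign. Fits of the 8 libraries of 1 treatment alone give no value for the change, which needs all 4 groups. Genes under about 10 reads have wide counting error, so differences in them may not be detectable at this depth.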
